A study of Homo sapiens with 2 samples.

Results

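The ciliary transition zone genes examined here were the 10 genes CEP162, TMEM67, CEP290, CC2D2A, RPGRIP1L, TCTN1, TCTN2, TCTN3, B9D1 and MKS1. They are 10 of the 19775 genes that the platform annotation names on their own, and they have 29 probe sets. CEP162 and TMEM67 were chosen by their measured differences, since both stood among the genes at least 2-fold higher on the FDFT1 array, and the other 8 genes share with them a place in the transition zone. The differences of CEP162 and TMEM67 are therefore a description. Both groups are the human lung adenocarcinoma line CL1-0, stably transduced and kept under puromycin for 2 weeks. The control group (1 sample) carries a control vector and the FDFT1 group (1 sample) an FDFT1 expression vector. FDFT1 encodes squalene synthase, the enzyme that commits the mevalonate pathway to sterols. No untransduced sample or separate clone was measured.

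The transition zone is the gate at the base of the cilium, where links between the microtubule doublets and the membrane control which proteins enter. Its proteins form modules: membrane and B9-domain proteins of the MKS module (TMEM67, the tectonics TCTN1 to TCTN3, CC2D2A, B9D1 and MKS1), the scaffold RPGRIP1L, and CEP290, with CEP162 acting at the distal centriole upstream of them. Inherited loss of several of these proteins causes Meckel and Joubert syndromes. Primary cilia form mainly in cells that have left the cell cycle, and the zone is also needed for Hedgehog signalling.

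Each sample was measured on 1 Affymetrix array, and the values are MAS5 signals, a linear brightness per probe set. The control array had a median signal of 12.3, the FDFT1 array one of 12.1. Differences are given on the log2 scale as FDFT1 minus control, after centring: the deposited FDFT1 signals of probe sets bright on both arrays were lower by a median of 0.11, and that shift was removed. Signals under 12.2, the median of all, were set to that floor, and a probe set counts as measured if its higher scaled signal reached it. No replicate exists for either group, so no p-value can be given. The error given beside a difference is how far probe sets for a single gene scatter at equal brightness (0.50 for a mean log2 signal under 5, 0.31 from 5 to 7, 0.22 from 7 to 9 and 0.16 from 9 to 11), and it leaves out differences between cultures. FDFT1 itself was not analysed here. Whether its transcript was raised in the FDFT1 sample is therefore unchecked in these data.

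The 10 genes did not all differ in 1 direction. CEP162 was about 2.4-fold higher on the FDFT1 array and 1 probe set of TMEM67 was 2.2-fold higher. By their brightest probe sets CEP290, CC2D2A and RPGRIP1L were slightly higher, CC2D2A and RPGRIP1L by less than 1 error. B9D1 and MKS1 were nearly level. The tectonics were level or lower, TCTN2 most. Of the 21 measured probe sets, 15 lay above 0 and 6 below, and their median was 0.09. Over all 29891 measured probe sets, 50.5% lay above 0 and the median was 0.0037. The 21 include the sets of CEP162 and TMEM67, chosen because they were higher, so no shift of the list is read from this. Without these 2 genes, 10 of 16 probe sets lay above 0 (62.5%), with a median of 0.03. At least 2-fold higher were 2 of the 21, beside 0.917% of all measured probe sets. Both belong to the genes that chose the list, so nothing is read from that count. None of the 21 was at least 2-fold lower, beside 0.806% of all measured probe sets. With the arrays as deposited, 152 of all probe sets were 2-fold higher and 322 lower, against 274 and 241 after centring.

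**Figure D1:**
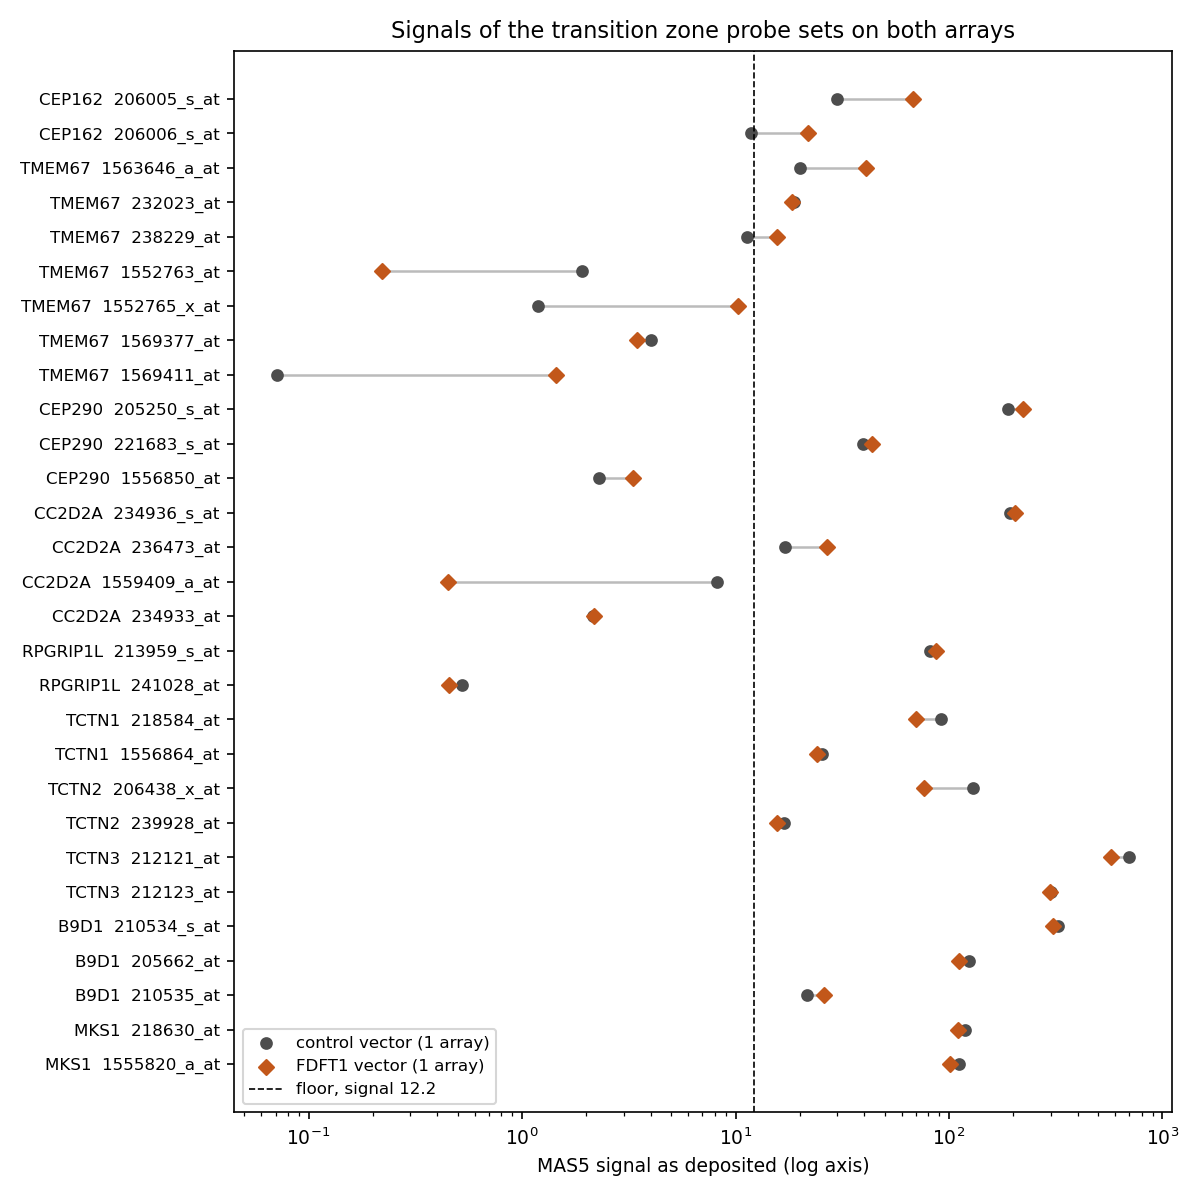
Deposited MAS5 signals (log axis) of all 29 transition zone probe sets on the control array (grey circles) and the FDFT1 array (orange diamonds), 1 array each; the dashed line is the floor of 12.2. Of the 29, 8 lie under the floor on both arrays, among them 4 of the 7 TMEM67 probe sets.

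CEP162 binds axonemal microtubules at the distal end of the centriole and helps to start the transition zone. Probe set 206005_s_at read 29.8 with the control vector and 67.6 with FDFT1. The difference was 1.29 with an error of 0.31, about 4.1 errors, and was 1.18 as deposited. Probe set 206006_s_at read 11.9 and 21.9, a difference of at least 0.95 with an error of 0.50, since the control signal lies under the floor. Both CEP162 probe sets read higher with FDFT1, 0.34 apart. The dimmer one reached the floor on the FDFT1 array alone, so it could hardly have counted as measured and read lower, and its sign adds no support. Both are of the type (_s_at) whose probes can match several transcripts. By its brightest probe set, CEP162 stood at position 23 of 13106 measured genes ordered from the highest difference. A high position came with the choice of CEP162 as a gene at least 2-fold higher, so nothing is read from it.

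TMEM67 encodes meckelin, a membrane receptor of the transition zone with a Frizzled-like outer part. Probe set 1563646_a_at read 20.0 with the control vector and 40.8 with FDFT1, a difference of 1.14 with an error of 0.50, or 2.3 errors. Probe set 238229_at read 11.4 and 15.7, which gives at least 0.47. Probe set 232023_at read 18.7 and 18.3; this is 0.08 after centring and -0.03 as deposited. Only 1 of the 3 measured probe sets therefore shows the 2-fold difference, and they span 1.06. The median span over all 6618 genes with more than 1 measured probe set was 0.38. Those genes cover all signal ranges and other numbers of probe sets. The 3 TMEM67 sets are all dim, each with an error of 0.50, so the spans cannot be compared directly. The other 4 TMEM67 probe sets stayed under the floor on both arrays, the highest of them at 10.3 on the FDFT1 array. Among all probe sets as dim as these TMEM67 sets (mean log2 signal under 5), 2.13% were at least 2-fold higher. In the next range (5 to 7), which holds the brighter CEP162 set, 0.664% were.

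CEP290 bridges the microtubules and the membrane. Its probe set 205250_s_at read 189 with the control vector and 222 with FDFT1, a difference of 0.34 with an error of 0.22. Probe set 221683_s_at read 39.7 and 43.5, a difference of 0.24 with an error of 0.31. These lie within 0.10 of each other and are both above 0 before and after centring. Each is under 2 errors, and the remaining probe set, 1556850_at, lay under the floor on both arrays (2.28 and 3.31).

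CC2D2A is a coiled-coil and C2-domain protein that organises the MKS module. The bright probe set 234936_s_at read 194 and 203 from the control to the FDFT1 array, a difference of 0.18 with an error of 0.22. The dim probe set 236473_at read 17.1 and 26.9, a difference of 0.76 with an error of 0.50. The values lie 0.59 apart, beside errors of 0.22 and 0.50, so a dependence of the size on the probe set is not shown. The sign is the same on both. The other two CC2D2A probe sets were not measured. RPGRIP1L, a scaffold that anchors the modules, had 1 measured probe set, 213959_s_at, which read 81.1 and 86.5 (difference 0.20, error 0.31). Its other probe set, 241028_at, was at 0.53 and 0.45, far under the floor.

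**Figure D2:**
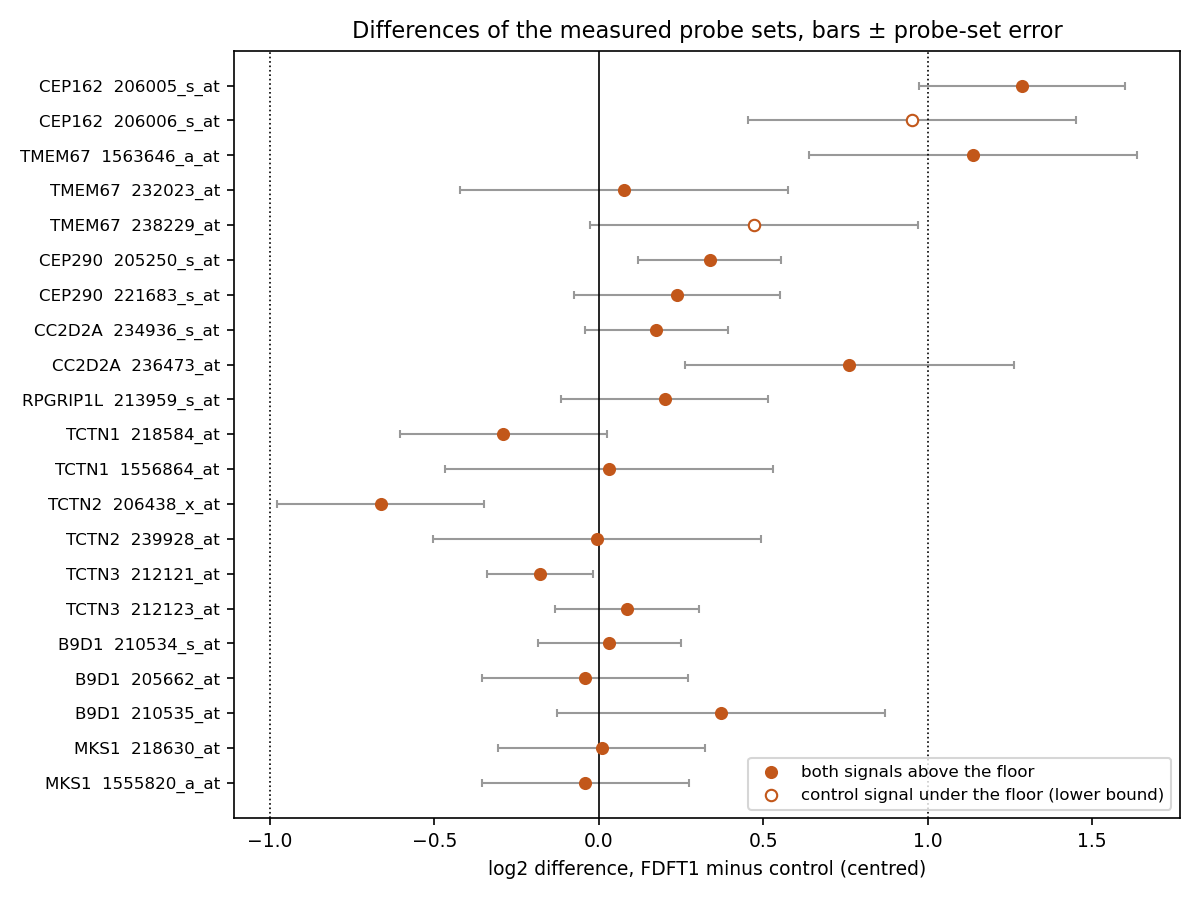
Centred log2 difference (FDFT1 minus control) of the 21 measured transition zone probe sets, with bars of ± 1 probe-set error; dotted lines mark 2-fold and open circles are lower bounds. CEP162 lies at 1.29 and at least 0.95, the TMEM67 sets spread from 0.08 to 1.14, and TCTN2 has the lowest value at -0.66.

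The tectonics are related secreted or membrane proteins of the MKS module. TCTN2 on probe set 206438_x_at read 129 with the control vector and 76.0 with FDFT1, a difference of -0.66 with an error of 0.31, or 2.1 errors. An _x_at probe set can also pick up other transcripts. The second TCTN2 probe set, 239928_at, read 16.9 and 15.6, a difference of -0.0052 with an error of 0.50, so the lower value stands on 1 probe set. TCTN1 on 218584_at read 92.0 and 69.9, a difference of -0.29 with an error of 0.31. On 1556864_at TCTN1 read 25.4 and 24.1, which is 0.03 after centring and -0.08 as deposited. TCTN3 on its brighter probe set 212121_at read 699 and 574, a difference of -0.18 with an error of 0.16. On 212123_at TCTN3 read 301 and 296, which is 0.09 after centring and -0.02 as deposited. By its brighter probe set each of the 3 tectonics was below 0. The dimmer set of each lay nearer 0.

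B9D1 and MKS1 carry the B9 domain, a C2-like fold, and act together in the MKS module. B9D1 on 210534_s_at read 323 with the control vector and 307 with FDFT1, a difference of 0.03 after centring and -0.07 as deposited (error 0.22). On 205662_at B9D1 read 123 and 111 (difference -0.04, error 0.31). The dim set 210535_at read 21.6 and 25.9 (difference 0.37, error 0.50). MKS1 on 218630_at read 118 and 111, a difference of 0.0086 after centring and -0.10 as deposited (error 0.31). On 1555820_a_at MKS1 read 111 and 101 (difference -0.04, error 0.31). All 5 probe sets of these genes differed by less than 1 error.

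The spread within a gene was as wide as most differences between the arrays. Of the 9 transition zone genes with more than 1 measured probe set, 4 (TCTN1, TCTN3, B9D1 and MKS1) had values on both sides of 0. This is 44.4%, against 59.3% of all such genes. CEP162, TMEM67, CEP290 and CC2D2A had all their measured probe sets above 0. TCTN2 had both below, but its set 239928_at only at -0.0052 with an error of 0.50. The dim sets 206006_s_at of CEP162 and 238229_at of TMEM67 count as measured through the FDFT1 array alone, and the sign of TMEM67 set 232023_at rests on the centring. Differences over 2 errors were found for 3 of the 21 probe sets, 1 each of CEP162, TMEM67 and TCTN2, and CEP162 and TMEM67 chose the list. Of the 16 probe sets of the other 8 genes, 1 (6.25%) differed by over 2 errors, beside 6.93% of all measured probe sets. Over 1 error were 4 of the 16 (25.0%), beside 32.6% of all. These 16 probe sets had a median of 0.03, with 10 above 0 and none 2-fold different.

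**Figure D3:**
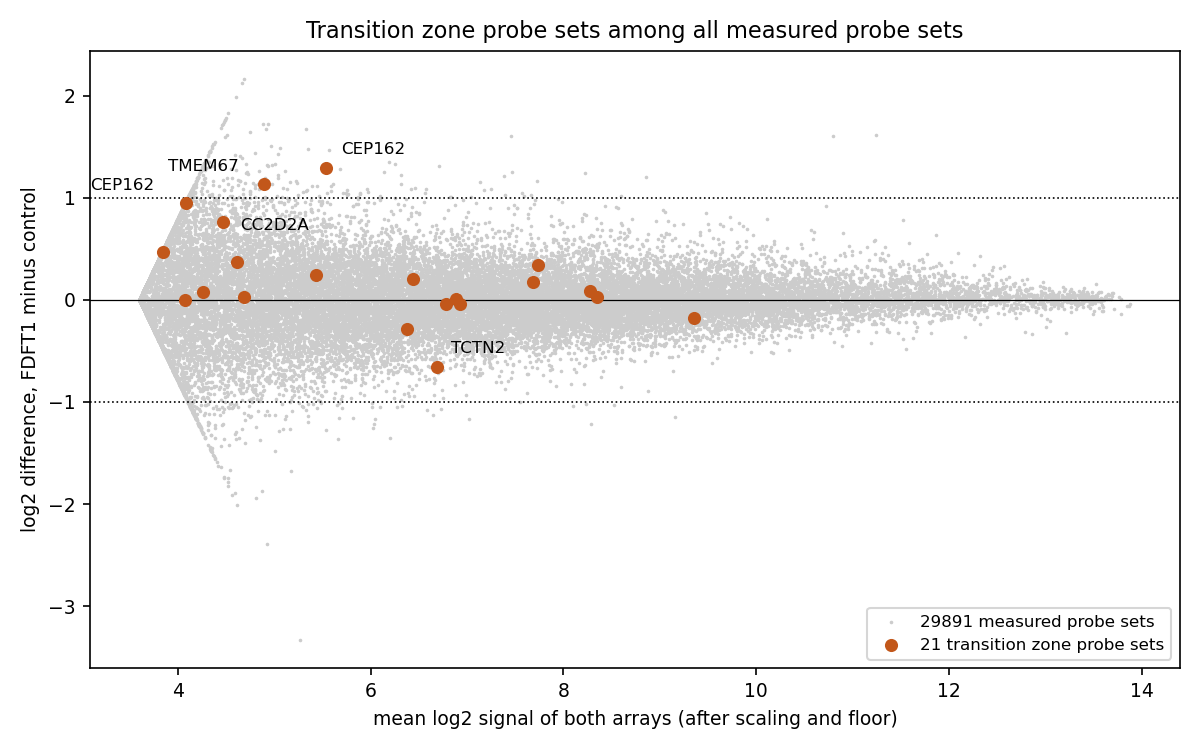
Centred log2 difference against mean log2 signal for the 29891 measured probe sets (grey) and the 21 transition zone probe sets (orange); dotted lines mark 2-fold, and the slanted edges at low signal come from the floor. The higher TMEM67 point lies under a mean log2 signal of 5, where the spread of all probe sets is widest, the higher CEP162 point lies in the range from 5 to 7, and the probe sets above 7 lie between -0.18 and 0.34.

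Other genes of the zone showed a similar mix. Of 13 further transition zone genes with a measured probe set, 8 lay above 0 and 5 below, beside 49.8% above 0 over all 13106 measured genes. Their median was 0.10, beside -0.0012 over all measured genes. None was 2-fold different, beside 0.656% of all measured genes at least 2-fold higher and 0.649% at least 2-fold lower by their brightest probe set. AHI1, a Joubert syndrome protein of the zone, read 137 and 183, a difference of 0.53 with an error of 0.22, and 2 of its 4 probe sets were higher. RPGRIP1, a relative of RPGRIP1L best known from photoreceptors, was at or above 0.51 at signals of 7.50 and 16.1, partly under the floor. TMEM107 was lowest at -0.31 (208 to 156, error 0.22), with 1 of 5 probe sets higher. RPGR, a GTPase regulator of the zone, was at -0.28 (86.6 to 66.4, error 0.31). As deposited, any of these differences between 0 and 0.11 lies below 0.

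Among the measured genes of neighbouring cilium modules none differed 2-fold, and with so few of all genes past 2-fold nothing is read from that count. Counts above 0, here and in the next paragraph, stand beside 49.8% of all measured genes. The inversin compartment, which lies next to the zone, had 3 measured genes with a median of -0.07, INVS at -0.36 (178 to 129) and NEK8 at 0.14 with 1 of its 2 probe sets higher. Distal appendage and centriole cap genes, most of which dock the centriole or control its cap, were listed together with CEP131. This list had a median of -0.05 (8 genes, 4 above 0). TTBK2, the kinase that starts ciliogenesis, was at 0.32 and CEP97, a cap protein, at 0.19, while CEP131 was at -0.19 and FBF1, higher on 1 of 2 probe sets, at -0.29. The 21 intraflagellar transport genes had a median of -0.04 with 9 above 0, from IFT81 at 0.44 (220 to 276, error 0.22) and IFT172 at 0.25 to IFT122 at -0.38 (147 to 104, error 0.22) and WDR35 at -0.23. IFT81 and IFT122 each had 1 of 2 probe sets higher. The BBSome and its partner ARL6, which carry membrane cargo, had a median of 0.01 (9 genes, 5 above 0). BBS7 was at 0.61 (84.4 to 120, error 0.31) with both its probe sets higher, BBS9 at 0.08, ARL6 at -0.19 and BBIP1 at -0.24, with 2 of the 3 BBIP1 probe sets higher.

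The list of ciliary membrane cargo genes, which holds both cargo proteins and factors of their delivery, had a median of 0.03 (7 genes, 4 above 0). RP2 was at 0.61 (234 to 331, error 0.22) with 1 of 2 probe sets higher, PDE6D at 0.41 with 1 of 3 higher, UNC119B at -0.30 and TULP3 at -0.19. Hedgehog signalling, which runs through the cilium, had 9 measured genes with a median of -0.03 and 4 above 0. Its target genes GLI1 and PTCH1 were at 0.12 (37.6 to 37.9) and 0.06 (153 to 148). GLI3 was at or above 0.73, with a control signal of 3.46 under the floor and 18.7 on the FDFT1 array. BOC, a co-receptor, was at -0.39 and GLI2 at -0.27.

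**Figure D4:**
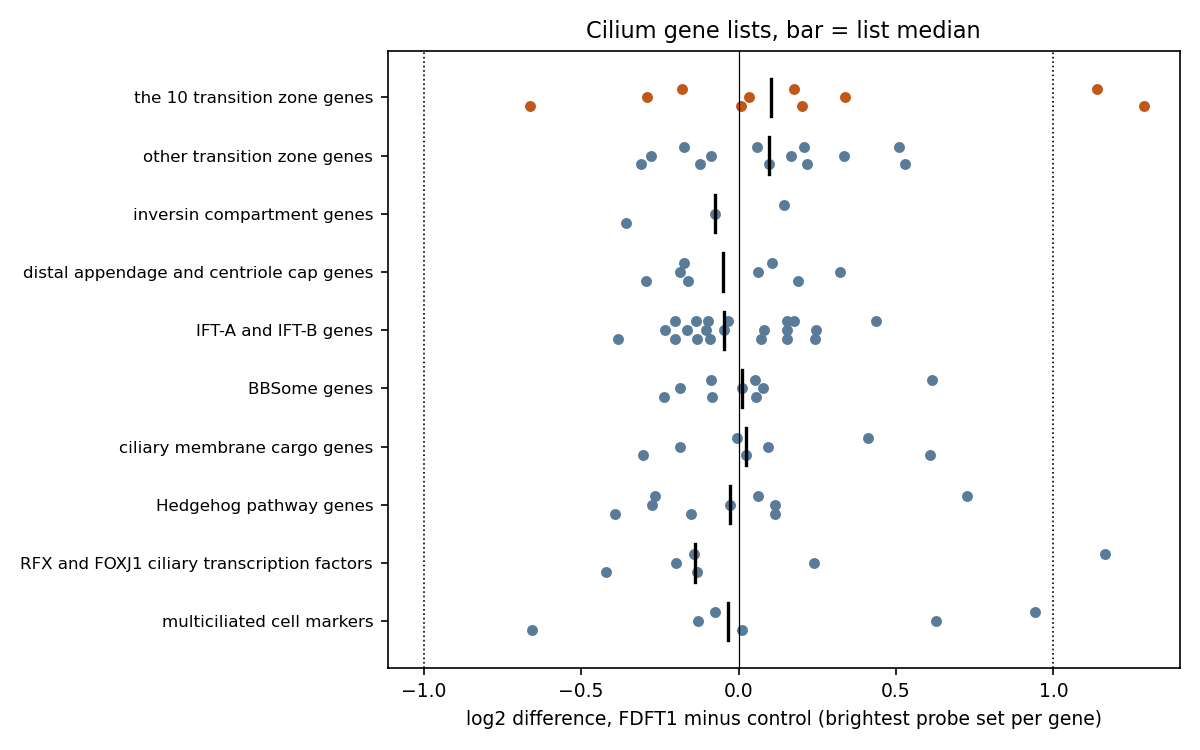
Centred log2 difference (brightest measured probe set per gene) for the 10 transition zone genes (orange) and other cilium gene lists (blue), 1 point per gene, with the black bar at the list median and dotted lines at 2-fold. The list medians lie between -0.14 and 0.10; only CEP162, TMEM67 and MYB pass 2-fold.

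The promoters of the zone genes are shown because many of them carry the X-box, the inverted repeat bound by RFX factors, which switch on ciliary genes. RefSeq promoter sequences (250 bases before to 50 after the gene start, GRCh38.p14) were read for 8 of the 10 genes. Promoters of TMEM67 and TCTN2 are not reported, so nothing is said on whether they hold the repeat. The search, written after these promoters had been seen, was for GTTNCC, then 1 to 3 bases, then GNNAAC, on both strands. It was met in promoters of CEP162, TCTN3, TCTN1 and MKS1. Among all genes with a promoter entry, 1.45% of 27305 met it, and 1.18% of all 35116 promoters. Because the search was written with the zone promoters in view, nothing is read from how often they met it. The half-site GTTNCC alone, which the pair contains, was in 45.4% of promoters. In the stretches printed next, read 5′ to 3′ on the gene's strand, capitals mark the match.
CEP162 promoter (GRCh38.p14, chr6:84227614-84227683, minus strand): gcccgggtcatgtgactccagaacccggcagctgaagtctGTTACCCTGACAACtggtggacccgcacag
TCTN3 promoter (GRCh38.p14, chr10:95694090-95694177, minus strand): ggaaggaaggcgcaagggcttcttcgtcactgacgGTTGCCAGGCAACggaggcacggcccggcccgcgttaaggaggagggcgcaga
TCTN1 promoter (GRCh38.p14, chr12:110614089-110614158, plus strand): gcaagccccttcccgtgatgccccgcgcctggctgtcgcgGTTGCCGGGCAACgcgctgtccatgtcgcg
MKS1 promoter (GRCh38.p14, chr17:58219236-58219329, minus strand): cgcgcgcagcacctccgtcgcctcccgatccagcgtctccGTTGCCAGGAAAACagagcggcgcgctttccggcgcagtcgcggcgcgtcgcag

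The matches of CEP162 and TCTN1 begin at the annotated first base of the gene, and those of TCTN3 and MKS1 begin at -215 and -34 relative to it. The 4 genes differed in their values: CEP162 was at 1.29, MKS1 at 0.0086, TCTN3 at -0.18 and TCTN1 at -0.29 on their brightest probe sets. Across the arrays, 180 measured genes have the match in a promoter. Their median difference was -0.04, with 80 above 0 (44.4%), 1 at least 2-fold higher (0.556%) and 3 at least 2-fold lower (1.67%), and CEP162 was the 1 higher gene. The 10443 measured genes with a promoter entry and no match had a median of -0.0016, with 49.7% above 0, 0.594% at least 2-fold higher and 0.440% at least 2-fold lower. A match describes the letters only and does not show binding.

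Of the factors that could read these promoters, RFX1 was at -0.42 (124 to 86.2, error 0.31), RFX3 at -0.20 with 3 of its 4 probe sets higher, RFX5 at -0.14, RFX2 at -0.13 and RFX7 at 0.24 (430 to 472, error 0.22). The list of RFX factors and their partners had a median of -0.14 over 6 measured genes. MYB, which acts in multiciliated cell differentiation, was at 1.16 on 1 dim probe set (13.8 to 28.7, error 0.50). FOXJ1, the master factor of motile cilia, lay under the floor on both arrays (3.13 and 3.39). Genes that start head to head with a transition zone gene were also read. TMTC3, opposite CEP290, was at 0.19 (329 to 348, error 0.22), FTO, opposite RPGRIP1L, at 0.02 (396 to 373), and ENTPD1, opposite TCTN3, at or under -0.38 (15.9 to 10.6).

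Markers of multiciliated cells were mostly unmeasured. Of 13 with a probe set, 6 were measured, 3 above 0 and 3 below, and the summed signal of the list was 230 with the control vector and 232 with FDFT1. The summed signals in this paragraph are deposited values before centring. They add all probe sets of a list, also those not measured, and cannot be set directly beside the centred differences. Under the floor on both arrays were FOXJ1, DNAI2, TEKT1, TEKT2, TPPP3, SPAG6 and HYDIN. CAPS, higher on 1 of 2 probe sets, was at or above 0.94 and RSPH1 at 0.63 (24.8 to 35.6, error 0.50), while DNAI1 was at or under -0.66 and CCDC40 at -0.13, all at signals under 36. The labels give the cell type as type II alveolar. Of its 8 markers with a probe set 5 were measured, at control signals from 29.3 for SFTPC to 79.9 for ABCA3. SFTPD, NAPSA and SLC34A2 lay under the floor on both arrays. The differences were 0.26 for LAMP3, 0.25 for SFTPB (1 of 2 probe sets higher), 0.02 for NKX2-1, -0.42 for ABCA3 and -0.69 for SFTPC. Fibroblast and endothelial markers were measured for 4 of 8 (COL1A1 0.45, PECAM1 0.41, PDGFRB at or above 0.05 and DCN -0.15; summed signal 254 and 262). COL1A1 had 1 of 3 and DCN 1 of 2 probe sets higher. Blood and immune markers were measured for 4 of 6 (HBB 0.58, ITGAM at or above 0.32, CD3E at or above 0.23 and CD79A -0.21; summed signal 114 and 125). Their part in the differences of the zone genes was not tested.

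**Figure D5:**
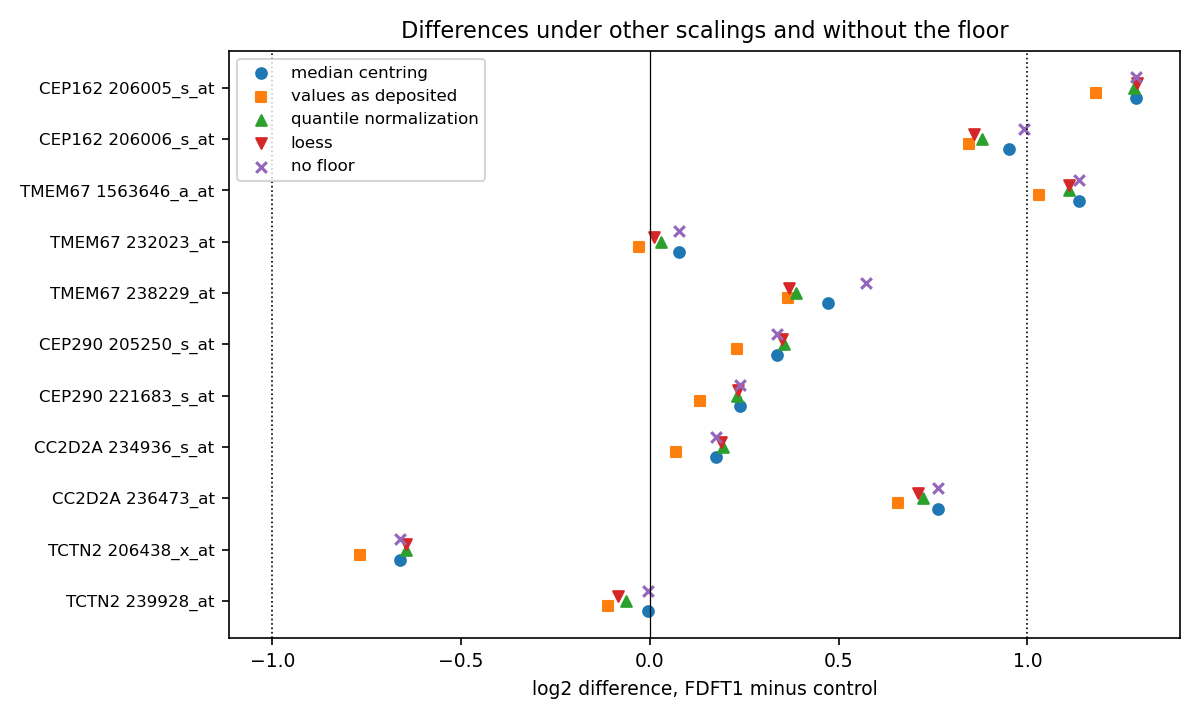
Log2 difference (FDFT1 minus control) of the measured probe sets of 5 transition zone genes under median centring, values as deposited, quantile normalization, loess, and without the floor; dotted lines mark 2-fold. The brighter CEP162 set stays between 1.18 and 1.29 and TMEM67 set 1563646_a_at between 1.03 and 1.14, whereas TMEM67 set 232023_at crosses 0.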

How the data were processed

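Total RNA of 1 CL1-0 sample per group was hybridised to 1 Affymetrix array each. The deposited values are intensity values on a linear scale, 1 MAS5 signal per probe set; the submitters' processing notes name MAS5 without a version, and neither a scaling target nor detection calls are stated. MAS5 subtracts mismatch probes and scales an array as a whole, so dim values are the least certain.

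Computed here, with Python 3.11.15, numpy 2.4.6 and pandas 2.3.3: 62 control probe sets were set aside, leaving 54613. The FDFT1 signals were shifted so that the median log2 difference over probe sets at or above the floor on both arrays was 0, then the floor was set, then log2 taken. The platform annotation named 1 gene for 41091 probe sets, several for 1801 and none for 11721; only the first were used for genes. Called means at least 2-fold; no test can be made. A gene in a list took its brightest measured probe set. Every probe set of the 10 genes is given, and up to 2 genes each way of every other list, with a few more named for their role. The probe-set error is the SD of the difference between a gene's brightest 2 measured probe sets, divided by the square root of 2. The steps were tested on simulated data. Its planted changes lay only in probe sets brighter than the CEP162 and TMEM67 sets, and its error check left out mean log2 signals under 5. The range of these 2 genes was therefore not fully covered. The 10 genes and all lists were chosen with earlier results of these data known. Alternatives were other scalings, floors, thresholds, probe set types and gene summaries.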

Additional observations from a re-analysis of the deposited data

How the results depend on the processing

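The count of 2 transition zone probe sets at least 2-fold different was the same as deposited, after quantile normalization, after loess and by brightest probe set. Of all measured probe sets, 0.517% were 2-fold higher and 1.09% lower as deposited. The shares were 0.758% and 0.816% after quantile normalization, and 0.7% and 0.877% after loess. The count was 4 without the floor (3 higher and 1 lower, where 13.6% of all probe sets were 2-fold higher and 11.8% lower). It was 0 with the floor at the 75th percentile (signal 99.4), beside 0.112% of all higher and 0.0349% lower. Without _x_at and _s_at probe sets it was 1, beside 1% higher and 0.835% lower. It was 1 by the mean of each gene's probe sets, 5 at 1.5-fold (4 higher, 1 lower) and 0 at 3-fold. No share over all was computed for these last settings, so nothing is read from their counts. The median of 0.09 was -0.020 as deposited, where the median over all probe sets was -0.10 and 10 of 21 were above 0; it was 0.0086 with the floor at the 75th percentile (9 probe sets) and 0.16 by gene means. Each of these alternatives changes which probe sets are counted, the zero point or the threshold. Without CEP162 and TMEM67, an alternative added after the data had been seen, the median was 0.03. All 106 values of single probe sets under these scalings, floors and probe set selections stayed within 1 probe-set error of those given. Most of them could hardly do otherwise, so nothing is read from that count. Leaving out probe set types keeps the remaining values unchanged, and a changed floor alters only values with a signal under the old or new floor. The deposited values differ by the shift of -0.11, smaller in size than every error. Probe sets not measured under a setting are left out. No paired analysis was possible because each group has 1 array. That number limits the precision, and dim probe sets near the floor, most TMEM67 sets among them, may be background.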
